A study of Mus musculus with 16 samples.

Results

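10 genes of complement and fractalkine signalling were followed in the cortex of mouse pups: C1qa, C1qb, C1qc, C3, C4b, C3ar1, Itgam, Itgb2, Cx3cr1 and Cx3cl1. They were found by their symbols, 1 entry each, among the 36930 entries of the deposited all-genes table. 9 of the 10 had values and were among the 21183 genes that passed the filter on low values, whereas C4b had no value in any pup. The 16 pups were 7 days old, on a C57BL6 background and of both sexes, and each had spent 1 h per day under blue light on P1 through P5 before the cortex was taken at P7. In 8 ChR2-flfl pups, the Cre-negative litter mates that served as controls, channelrhodopsin-2 fused to td-Tomato lay behind a floxed STOP in the Rosa26 locus and was not expressed. In 8 Avil-ChR2 pups the same construct was released by Cre under the advillin promoter, which is active in peripheral sensory neurons, mostly the IB4-positive non-peptidergic nociceptors, so that light was meant to act on nociceptors outside the brain. Advillin is also found in autonomic ganglia beyond the first week, litters were not labelled, and animals were not pooled.

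C1q is the recognition molecule of the classical complement pathway. Bound C1q leads to cleavage of C4 and C3, and C3 fragments on a surface are taken up through complement receptor 3 on phagocytes. In the developing brain, microglia are the main source of C1q and carry complement receptor 3, and this route is known for the removal of surplus synapses. Fractalkine is a membrane-bound chemokine of neurons that can be shed, and its receptor in the brain is found on microglia.

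Sequences are shown for genes in which they bear on what could be measured and for neighbouring members that varied together. C1qa, C1qb and C1qc lie next to each other on the minus strand of chromosome 4 of GRCm38 (C1qb at 136880145 to 136886177, C1qc at 136889802 to 136892914 and C1qa at 136895916 to 136898844). Promoter windows from 250 bases before to 50 bases after the start, taken from RefSeq on GRCm38.p6, were present for 7 of the 10 members, namely C1qb, C1qc, C3, C3ar1, Itgam, Cx3cr1 and Cx3cl1. Those of the neighbours C1qb (chr4:136886151-136886450) and C1qc (chr4:136892865-136893164), both on the minus strand, are printed 5′ to 3′ because the RNA of both genes varied together across pups. Whether the windows bear on this variation was not tested. Capitals mark a match to GAGGAAGT, a motif of the myeloid factor PU.1, on either strand.
C1qb: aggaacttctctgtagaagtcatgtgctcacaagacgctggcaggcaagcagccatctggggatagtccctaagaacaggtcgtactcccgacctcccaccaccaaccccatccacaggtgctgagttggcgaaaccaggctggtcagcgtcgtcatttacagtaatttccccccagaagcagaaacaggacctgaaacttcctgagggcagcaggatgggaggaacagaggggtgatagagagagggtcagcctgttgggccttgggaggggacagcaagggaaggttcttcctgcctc
C1qc: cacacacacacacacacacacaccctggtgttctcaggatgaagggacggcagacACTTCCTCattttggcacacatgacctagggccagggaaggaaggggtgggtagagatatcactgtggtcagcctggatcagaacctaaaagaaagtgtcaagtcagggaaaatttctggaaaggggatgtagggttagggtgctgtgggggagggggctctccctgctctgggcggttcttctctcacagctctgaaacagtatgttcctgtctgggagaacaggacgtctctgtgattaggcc
The match in C1qc was read on the reverse strand and began at position -195 relative to the start. It was the only match among the 7 windows, and 3.20% of 32851 promoters of the same length held one. The shorter core GGAA, which is contained in that motif, occurred in each of the 7 windows and in 96.0% of all promoters. TATAAA on either strand was present in the windows of C3, C3ar1 and Cx3cl1 and in 13.6% of all promoters. It lay close to the start in C3 and Cx3cl1 but near the upstream end of the window in C3ar1.

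C4b is shown beside C4a, its close copy on the same strand of chromosome 17, because C4a had values and C4b had none. The longest transcripts of both genes in the GENCODE annotation of GRCm38 were identical at 96.1% of 5367 aligned bases, with a longest identical run of 433 bases. The stretch below, 60 bases of exon 21 of each transcript, holds 13 differences, which are in capitals (C4b at chr17:34735430-34735489 and C4a at chr17:34816086-34816145, minus strand). It was picked as the 60 aligned bases without a gap that hold the most differences, and is less alike than the transcripts as a whole.
C4b: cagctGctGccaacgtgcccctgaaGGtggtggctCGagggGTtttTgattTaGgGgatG
C4a: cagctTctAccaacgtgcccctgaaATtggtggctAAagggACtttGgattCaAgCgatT

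The depth was even in 15 pups, with 47791532 to 48711134 reads assigned to genes, and lower in ChR2-flfl replicate 3 with 30549126 reads. Avil itself, the gene whose promoter drives the Cre, was listed at 0.825 to 1.464 CPM (counts of a gene relative to all reads of the pup, TMM-scaled) in ChR2-flfl and at 37.3 to 46.4 CPM in Avil-ChR2, and each library matched its label in this respect. Of the cell type markers, those of neurons summed to 4411 to 4786 CPM per pup and those of astrocytes to 1370 to 1789 CPM. Microglia markers other than Cx3cr1 summed to 272 to 368 CPM (median 301) in ChR2-flfl and 279 to 340 CPM (median 321) in Avil-ChR2, with 12 of 15 measured. The remaining microglia markers, P2ry12, P2ry13 and Gpr34, had no value in any pup. ChR2-flfl replicate 1 stood apart. It had the lowest value of all 16 pups in 7 of the 9 measured members and the lowest of the 8 ChR2-flfl pups in 8 of them. Its astrocyte marker sum was 1370 CPM against at least 1557 CPM in each other pup, while its microglia marker sum of 298 CPM lay inside the range of the others. The part of the marker differences in the results was not tested, and genotype differences without this pup are given for members in which it moved them by more than 1.5 times.

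The levels of the members were compared between genes as CPM per kilobase of the longest transcript. Cx3cl1, the neuronal ligand fractalkine, was far above the rest, with 91.1 ± 9.58 CPM per kb (SD, n = 8) in ChR2-flfl pups. The C1q chains followed with 9.18 ± 1.19 for C1qb, 8.34 ± 1.83 for C1qc and 7.94 ± 1.25 for C1qa, and their ranges over pups overlapped, so that they did not differ beyond their spread. Cx3cr1, the fractalkine receptor, was next with 5.05 ± 0.675 CPM per kb. Itgam, the alpha chain of complement receptor 3, reached 1.11 ± 0.172 and its partner Itgb2, the beta chain shared by the leukocyte integrins, 0.434 ± 0.0924, with no overlap between the pups. C3ar1, the receptor of the C3a fragment, with 0.477 ± 0.0634 CPM per kb, overlapped with Itgb2. C3, the central component that all complement routes converge on, was lowest with 0.190 ± 0.0405 CPM per kb. The order was the same in Avil-ChR2 pups, from 97.8 ± 4.45 CPM per kb for Cx3cl1 to 0.196 ± 0.0499 for C3. With coding length in place of the transcript, Cx3cr1 moved to rank 2 at 21.4 CPM per kb, and with all exons of the gene C1qc came after C1qa at 5.20.

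**Figure D1:**
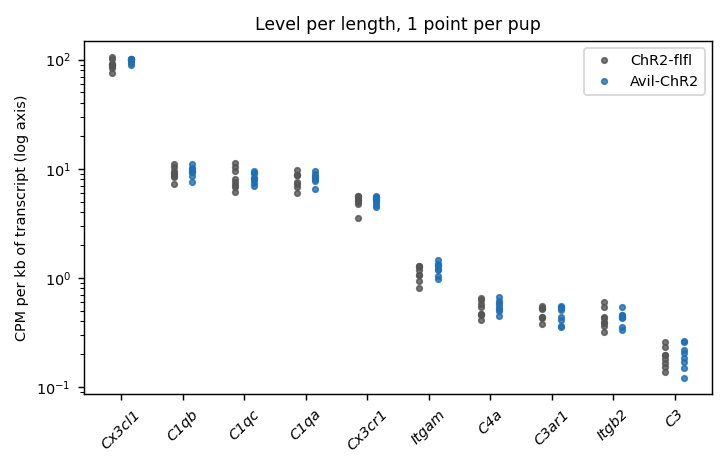
Level of the 9 measured members and of C4a as CPM per kilobase of the longest transcript (log axis), 1 point per pup, ChR2-flfl in grey and Avil-ChR2 in blue. Cx3cl1 lies near 91.1 CPM per kb, the C1q chains between 5.99 and 11.2 in ChR2-flfl, and C3 below 0.263 in every pup.

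In the comparison of genotypes no member passed the test. Pups of both genotypes had been under blue light, and no group without light was included. Light-driven activity of nociceptors therefore cannot be told apart from other effects of carrying Cre and the released construct. 0 of the 9 members had an adjusted p below 0.05 in limma, against a background of 0.00944% of all genes tested, that is Avil and Mars, the methionyl-tRNA synthetase gene. At an unadjusted p below 0.05 there were also 0 members, against a background of 5.41% of all genes. 8 of the 9 members had a higher mean log2 value in Avil-ChR2 and 1, C3ar1, a lower one. The median log2 difference (Avil-ChR2 minus ChR2-flfl) was 0.032 over the members and 0.0020 over all genes, of which 51.4% were higher in Avil-ChR2. With 1 pup left out at a time, the median over the members lay between 1.75e-05 without ChR2-flfl replicate 1, where 5 members were higher, and 0.086 without ChR2-flfl replicate 2. The median size of the difference, regardless of direction, was 0.046 for the members and 0.051 for all genes. The 95% intervals of all 9 members lay between -0.32 and 0.38 on the log2 scale, so that in each of them a change of 1 log2 unit lay outside the interval. These are values of bulk tissue, in which fewer cells of a type and less RNA per cell cannot be told apart.

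**Figure D2:**
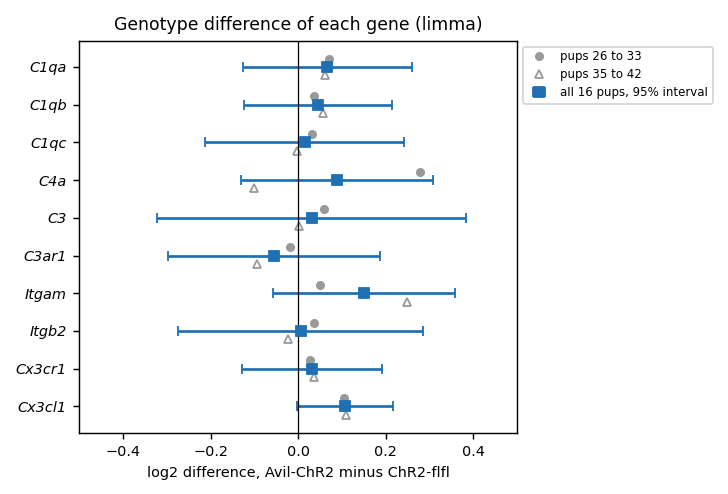
Log2 difference of Avil-ChR2 minus ChR2-flfl for the 9 measured members and C4a, with the 95% interval of limma over 16 pups (blue squares and bars) and the mean difference within pups 26 to 33 (grey circles) and within pups 35 to 42 (open triangles). Each interval includes 0, and the interval of Cx3cl1 begins at -0.0017.

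The recognition genes of the classical pathway were close to each other in both genotypes. C1qa, which encodes the A chain of C1q, was 6.23 CPM in the lowest, 8.44 in the median and 10.1 in the highest ChR2-flfl pup, and 6.75, 8.74 and 9.98 CPM in Avil-ChR2. All 8 Avil-ChR2 pups lay inside the range of the controls. The log2 difference was 0.066 with an SE of 0.093 (95% interval -0.13 to 0.26, adjusted p = 0.98, limma), and it was 0.010 without ChR2-flfl replicate 1. C1qb, the B chain gene, was 7.94, 9.79 and 12.07 CPM (lowest, median, highest) in ChR2-flfl and 8.28, 10.3 and 12.05 CPM in Avil-ChR2. Again the 8 Avil-ChR2 values fell inside the control range, with a log2 difference of 0.046 (95% interval -0.12 to 0.22), which was 1.75e-05 without ChR2-flfl replicate 1. C1qc, the C chain gene, was 7.40, 9.40 and 13.5 CPM in ChR2-flfl and 8.30, 9.88 and 11.5 CPM in Avil-ChR2. Its means were 10.04 ± 2.20 and 9.99 ± 1.102 CPM (SD, n = 8 each) and its log2 difference 0.015 (95% interval -0.21 to 0.24), or -0.044 without that pup. The genotypes overlapped in full, and the spread of C1qc among the controls, with a coefficient of variation of 21.9%, was wider than among the Avil-ChR2 pups at 11.03%. That difference in spread was not tested. Reads counted per pup were 281 to 653 for these 3 genes, and counting error alone would give a coefficient of variation of 4.47 to 5.14%.

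**Figure D3:**
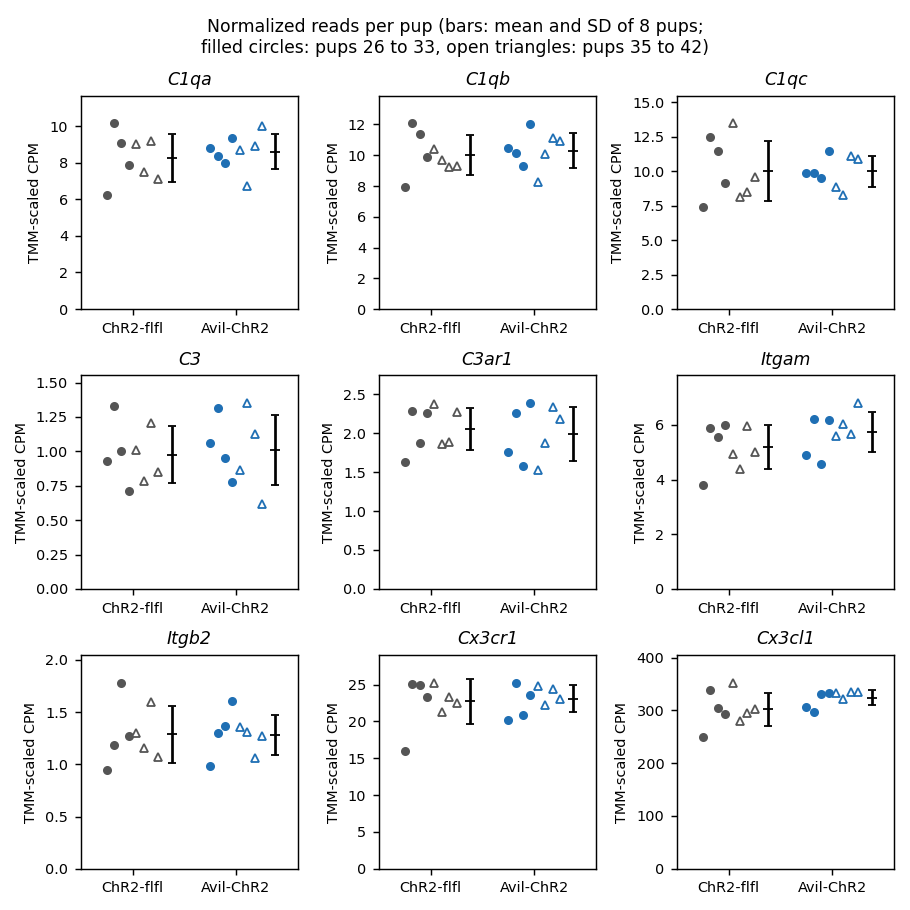
TMM-scaled CPM of the 9 measured members in each pup, by genotype (linear axes from 0). Bars are mean and SD of 8 pups, filled circles are pups 26 to 33 and open triangles pups 35 to 42, and in each panel the genotypes overlap.

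C3 (chromosome 17, 57203968 to 57228136, minus strand) was measured by few reads, 30 to 66 per pup. The lowest, median and highest values were 0.710, 0.965 and 1.33 CPM in ChR2-flfl and 0.618, 1.008 and 1.35 CPM in Avil-ChR2. The groups overlapped, with 1 Avil-ChR2 pup above and 1 below the control range. The log2 difference of 0.031 had the widest interval of all members (-0.32 to 0.38). Counting error alone would give a coefficient of variation of 14.9% in the controls, where 21.3% was measured. Small differences in C3 lay inside this interval, and the part of depth in its width was not tested.

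C4b encodes the C4 protein of the pathway and stayed without a value. In the table its range (34728046 to 34743901 on the minus strand of chromosome 17) lies wholly within that of Tnxb (34659788 to 34795460, plus strand), the gene of tenascin X. Of the 5866 entries that lie wholly within another entry, 94.4% had no value in any pup. The share was 1.42% of 8825 entries that overlap another one in part, and 13.6% of 22239 entries without overlap. Entries within another on the opposite strand only were without a value in 93.6%. P2ry12 and P2ry13, which lie within Med12l, and Gpr34, which lies within Cask, are of the same kind. Cfd, the gene of factor D of the alternative pathway, also had no value in any pup but lies within no other entry. The missing value of C4b is therefore not given as absence of its RNA, and how the counting treated reads in shared ranges is not given in the sources used here. Tnxb had 13.6 ± 1.66 CPM in ChR2-flfl and 13.4 ± 1.33 CPM in Avil-ChR2 (log2 difference -0.023, adjusted p = 0.99, limma).

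C4a, whose sequence is set beside that of C4b above, was no member but the only C4 entry with values. It is annotated as a processed transcript in this reference, and it is known in the mouse as Slp, the gene of the sex-limited protein. C4a was 2.22, 2.72 and 3.49 CPM (lowest, median, highest) in ChR2-flfl and 2.41, 2.96 and 3.59 CPM in Avil-ChR2. The log2 difference was 0.089 (95% interval -0.13 to 0.31, adjusted p = 0.97, limma), and 7 of 8 Avil-ChR2 pups lay in the control range. Within pups 26 to 33 the difference was 0.28 and within pups 35 to 42 it was -0.10, and the difference between both did not pass the test (adjusted p = 0.9998, limma interaction). Of all 75-base windows of the C4b transcript 23.5% were also found in C4a, and of the 50-base windows 35.2%. Reads from such windows cannot be told apart between both genes, so that the value of C4a is uncertain in this respect.

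**Figure D4:**
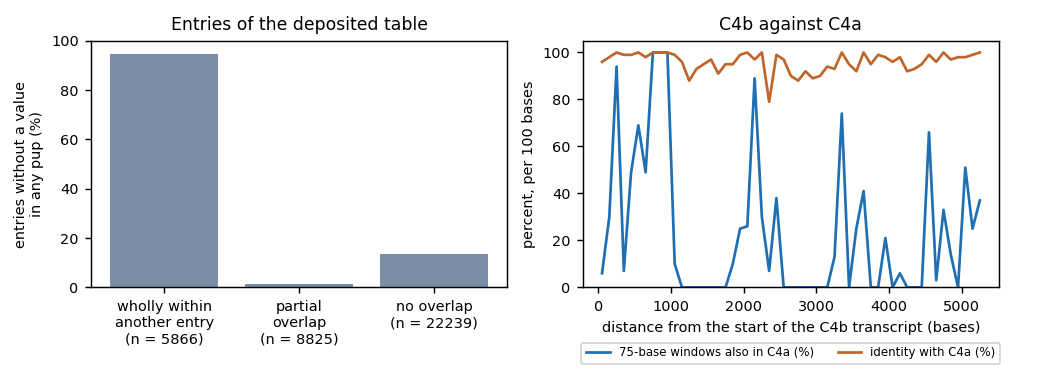
Left, percent of table entries without a value in any pup, by whether the entry lies wholly within another (94.4%), overlaps in part (1.42%) or does not overlap (13.6%). Right, identity with C4a (orange) and percent of 75-base windows also found in C4a (blue) per 100 bases along the C4b transcript.

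The receptors of C3 fragments showed small differences in either direction. Itgam, known as CD11b (chromosome 7, 128062640 to 128128160, plus strand), was 3.81 CPM in the lowest, 5.29 in the median and 6.01 in the highest ChR2-flfl pup, and 4.56, 5.86 and 6.79 CPM in Avil-ChR2. The groups overlapped, with 4 Avil-ChR2 pups above the highest control. Its log2 difference was the largest of the members, 0.15 with an SE of 0.099, and did not pass the test (p = 0.15, adjusted p = 0.95, limma, and p = 0.19 in the two-sided exact permutation test). The difference was 0.051 within pups 26 to 33 and 0.25 within pups 35 to 42, and it was 0.089 without ChR2-flfl replicate 1. In the reference, 71.7% of the 75-base windows of the Itgam transcript also occur in an overlapping model, Gm49368, which has no entry of its own in the table.

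Itgb2, or CD18 (chromosome 10, 77530328 to 77565681, plus strand), pairs with Itgam in complement receptor 3. Itgb2 was 0.948, 1.23 and 1.78 CPM (lowest, median, highest) in ChR2-flfl and 0.982, 1.30 and 1.61 CPM in Avil-ChR2, and all Avil-ChR2 pups lay in the control range. The log2 difference was 0.0064 (95% interval -0.27 to 0.29), and -0.053 without ChR2-flfl replicate 1. C3ar1, a G protein-coupled receptor (chromosome 6, 122847140 to 122856157, minus strand), was 1.63, 2.07 and 2.37 CPM in ChR2-flfl and 1.52, 2.03 and 2.39 CPM in Avil-ChR2. Here 2 Avil-ChR2 pups were below and 1 above the range of the controls, and the log2 difference was -0.056 (95% interval -0.30 to 0.19), or -0.10 without ChR2-flfl replicate 1. Itgb2 and C3ar1 rested on 46 to 115 reads per pup.

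Cx3cr1 and Cx3cl1 form the fractalkine pair and lie on chromosome 9 (120048683 to 120068296, minus strand) and chromosome 8 (94772180 to 94782427, plus strand). Cx3cr1 was 16.04 CPM in the lowest, 23.3 in the median and 25.2 in the highest ChR2-flfl pup, and 20.3, 23.3 and 25.2 CPM in Avil-ChR2. The lowest control was replicate 1, and the next lowest had 21.2 CPM. With all pups the log2 difference was 0.032 (95% interval -0.13 to 0.19, adjusted p = 0.99, limma), and without this pup it was -0.038.

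Cx3cl1, the most abundant member, came nearest to the threshold. It was 250.5 CPM in the lowest, 299.7 in the median and 351.7 in the highest ChR2-flfl pup, and 296.8, 332.2 and 335.8 CPM in Avil-ChR2. The 8 Avil-ChR2 pups were all inside the control range, and 7 of them were above the control mean. The means were 302 ± 31.8 and 324 ± 14.8 CPM (SD, n = 8 each), a fold of 1.08 (95% interval 0.999 to 1.16). The log2 difference of 0.11 with an SE of 0.052 did not pass the test (p = 0.053, adjusted p = 0.91, limma, and p = 0.084 in the two-sided exact permutation test). It was 0.11 within each run of pup numbers and 0.070 without ChR2-flfl replicate 1. The unadjusted p fell below 0.05 when ChR2-flfl replicate 2, ChR2-flfl replicate 5, Avil-ChR2 replicate 1 or Avil-ChR2 replicate 2 was left out, with log2 differences of 0.13, 0.14, 0.12 and 0.13, while the adjusted p of limma was between 0.57 and 0.94 in these 4 fits. The coefficient of variation was 10.5% in ChR2-flfl and 4.55% in Avil-ChR2, with a counting error below 0.847%.

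Sex was compared in the 15 pups, 8 females and 7 males, for which the label and the additional gene information of the study named the same sex. The pup left out was Avil-ChR2 replicate 4. 0 of the 9 members had an adjusted p below 0.05 in limma, against a background of 0.0425% of all genes, and 0 an unadjusted p below 0.05, against a background of 3.81%. 7 members were higher in females and 2 in males. Differences (female minus male) were between -0.22 for C3 and 0.19 for Itgb2 on the log2 scale. Itgb2 was 1.16 to 1.78 CPM in females and 0.948 to 1.599 CPM in males, overlapping, with the lowest p of all members (adjusted p = 0.9999, limma). The genotype difference of C1qb differed between the sexes at an unadjusted p below 0.05 only (interaction -0.36 on the log2 scale, 95% interval -0.67 to -0.048, adjusted p = 0.99, limma). C1qb was 7.94 to 10.4 CPM in 4 male ChR2-flfl and 10.1 to 11.1 CPM in 3 male Avil-ChR2 pups, whereas it was 9.70 to 12.1 CPM in 4 female ChR2-flfl and 8.28 to 10.9 CPM in 4 female Avil-ChR2 pups. The interaction passed an unadjusted p of 0.05 in 4.72% of all genes and an adjusted p in none.

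The pup numbers of the labels form 2 runs, 26 to 33 and 35 to 42, and each run holds 4 ChR2-flfl and 4 Avil-ChR2 pups. What a run stands for is not labelled. Sex was not balanced between them, with more females than males by label in pups 26 to 33 and more males in pups 35 to 42. Sex and run are therefore not fully separate in either comparison. Genes with a value numbered 23246 (ChR2-flfl replicate 3, the shallowest library) to 24262 in pups 26 to 33 and 23379 to 23583 in pups 35 to 42. The runs differed (35 to 42 minus 26 to 33) in 0 of 9 members at an adjusted p below 0.05 in limma, against a background of 0.123% of all genes, and in 0 at an unadjusted p, against a background of 12.5%. The differences of the members lay between -0.067 for C1qb and 0.070 for Cx3cr1, and the lowest p was 0.26, for Cx3cl1. The genotype differences of the members did not pass a test between runs either, with p from 0.34 to 0.97 for the limma interaction.

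The 3 chains of C1q are joined in 1 protein, and their RNAs varied together from pup to pup. Log2 values were taken after subtraction of the genotype mean, over 16 pups, and 3 pairs were computed. C1qb and C1qc had a Pearson r of 0.79 (permutation p = 0.00033, adjusted p = 0.00081) and a Spearman rho of 0.84 (permutation p = 0.00010, adjusted p = 0.00030). C1qa and C1qc had an r of 0.76 (permutation p = 0.00054, adjusted p = 0.00081) and a rho of 0.72 (permutation p = 0.0024, adjusted p = 0.0035). C1qa and C1qb had an r of 0.66 (permutation p = 0.0058, also after adjustment) and a rho of 0.68 (permutation p = 0.0053, also after adjustment). Without the 2 pups farthest from the median on the first gene, r was 0.75, 0.63 and 0.61. The pups left out were ChR2-flfl replicate 1 in each case and Avil-ChR2 replicate 5 or 6. Within pups 26 to 33 r was 0.97 for C1qb and C1qc, 0.98 for C1qa and C1qc and 0.97 for C1qa and C1qb. Within pups 35 to 42 r was 0.59, 0.54 and 0.21 (n = 8 in each run), so that the relation of C1qa and C1qb rested mostly on the first run. Whether the runs differ in this was not tested. The permutation tests ask only whether a pair is correlated at all, and the values of a pup share a library. In pairs of members with a gene outside C1q, r was -0.013 to 0.81 (C1qc and Cx3cl1), so that high r was not particular to C1q.

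**Figure D5:**
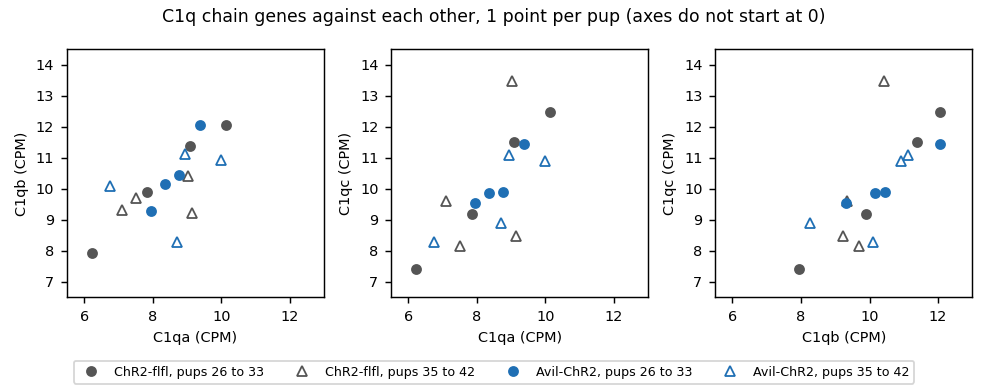
CPM of C1qa, C1qb and C1qc against each other, 1 point per pup (axes do not start at 0), filled circles for pups 26 to 33 and open triangles for pups 35 to 42, grey for ChR2-flfl and blue for Avil-ChR2. The filled circles follow a line, with r of 0.97 to 0.98, and the open triangles scatter more, with r of 0.21 to 0.59.

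The other pairs are given as a description. The points share library and depth, and ChR2-flfl replicate 1 was low in most members. C3 had r between -0.013 and 0.17 with the other 8 members, but it rested on 30 to 66 reads per pup. Over all pups counting error alone would give C3 a coefficient of variation of 14.6%, where 22.8% was measured. For Itgb2 it would give 12.9%, where 17.8% was measured. With the members other than C3, Itgb2 had r from 0.047 (C3ar1) to 0.56 (Cx3cr1). Such error lowers any r, but its part in the low r of C3 was not tested. C1qc and Cx3cl1, a microglial and a neuronal gene, had an r of 0.81, as high as within C1q, and Cx3cr1 and Itgam, both microglial, 0.75. Itgam and Itgb2, the chains of complement receptor 3, had an r of 0.54. Among 15137 genes, those most like Cx3cr1 were Csf1r (r = 0.89), the receptor of colony stimulating factor 1 on microglia, Map6d1 (0.88) and Abhd12 (0.88). Those most like C1qa were Cox4i1 (0.85), a subunit of cytochrome c oxidase, Cdh23 (0.84) and Apoe (0.82), the apolipoprotein. Phyhip (0.94), Spata2l (0.90) and Fam107a (0.90) were most like Cx3cl1, and for C4b no such genes could be given. These are the highest r of a large search, and the highest r that chance would give was not computed.

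The other genes of the pathways did not pass the adjusted test either. Of 14 tested genes of complement initiation and the lectin pathway, 9 were higher and 5 lower in Avil-ChR2 with 0 at an unadjusted p below 0.05. C2, the partner of C4 in the C3 convertase, was 1.77 ± 0.404 CPM in ChR2-flfl and 2.00 ± 0.377 CPM in Avil-ChR2, and Masp1, a lectin pathway protease, 35.3 ± 2.04 and 34.4 ± 2.39 CPM. Of 8 genes of the alternative and terminal pathway, 4 were higher and 4 lower, again with 0 at that p. Cfp, the gene of properdin, was 8.01 ± 0.657 and 7.44 ± 0.695 CPM, and C8b 0.104 ± 0.0578 and 0.142 ± 0.0541 CPM. Of 8 complement receptor genes, 3 were higher and 5 lower with 0 at that p, led by Itgam and by Itgax, the alpha chain of complement receptor 4, with 0.175 ± 0.112 and 0.234 ± 0.208 CPM.

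Of 19 complement regulators 8 were higher and 11 lower, and 4 of the latter had an unadjusted p below 0.05, a share to be read beside the 5.41% of all genes. These were Csmd3, Csmd1, Csmd2 and Cr1l, and the lowest adjusted p of the list was 0.72 in limma. The Csmd genes encode large neuronal membrane proteins with domains like those of complement regulators. Csmd3 was 49.4 ± 5.10 CPM in ChR2-flfl and 43.1 ± 1.73 CPM in Avil-ChR2 (log2 difference -0.19), Csmd1 85.9 ± 10.8 and 74.6 ± 3.09 CPM (-0.19) and Csmd2 125 ± 18.2 and 108 ± 7.33 CPM (-0.20). For each of the 3 genes all 8 Avil-ChR2 pups were below the control mean. Cr1l, the inhibitor Crry, was 17.2 ± 1.04 and 16.1 ± 0.830 CPM (-0.091). ChR2-flfl replicate 1 had the highest sum of the regulators, 1516 CPM against at most 1450 CPM in the other pups.

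The 5 tested genes of the fractalkine axis, with the sheddases Adam10 and Adam17 and the protease Ctss, were all higher with 0 at an unadjusted p below 0.05. Of all genes 51.4% were higher. The log2 differences ran from 0.0015 for Adam17 and 0.0054 for Adam10 to 0.12 for Ctss, and that of Cx3cr1 was -0.038 without ChR2-flfl replicate 1. Ctss, cathepsin S of microglia, was 11.5 ± 1.46 and 12.4 ± 0.847 CPM, and Adam10, the main constitutive sheddase of fractalkine, 149 ± 8.47 and 150 ± 4.55 CPM. Among 18 other genes of phagocytosis 8 were higher and 10 lower, and 3 had an unadjusted p below 0.05, a share to be read beside the 5.41% of all genes. Gas6, the bridging ligand of the receptors Axl and Mertk, was 68.2 ± 6.70 and 76.6 ± 6.26 CPM (log2 difference 0.17, adjusted p = 0.82, limma). Abca1, a lipid transporter, was 81.2 ± 4.47 and 75.6 ± 5.59 CPM (-0.10), and Megf10, an engulfment receptor of astrocytes, 11.3 ± 0.823 and 10.4 ± 0.618 CPM (-0.12).

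Of the 13 tested microglia markers, Cx3cr1 included, 10 were higher and 3 lower in Avil-ChR2, with 0 at an unadjusted p below 0.05 and a median log2 difference of 0.044. Siglech, a microglial lectin, was 5.23 ± 0.668 and 5.61 ± 0.440 CPM, and Fcrls, a receptor-like marker, 15.2 ± 2.36 and 16.04 ± 1.41 CPM. The sum of all markers of microglia ranged over 296 to 394 CPM in ChR2-flfl and 302 to 364 CPM in Avil-ChR2, so that it overlapped as the members did.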

How the data were processed

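Groups, replicate numbers, pup numbers and sexes come from the labels of the samples. Per the paper's methods, the authors made libraries from 1 µg of total RNA with a TruSeq mRNA kit (stranded per the methods, not named so in the labels) and sequenced 75 cycles. Alignment was to GRCm38 (mm10) by SeqMan NGen 17 with a minimum length of 50 bp, and mapped reads were displayed with ArrayStar 17. The reads were scaled with TMM factors of edgeR, which the submitters' processing notes also name. The deposited values are therefore linear, TMM-scaled CPM rather than raw counts, each pup having its own column, and 0 columns were left unmapped. Whether counting used strand or how overlapping genes were treated is not given in the sources used here. In every pup the values were whole multiples of 1 read, and 100% of those up to 20000 reads were whole to within 0.05 reads. Libraries had no molecular identifiers, so that counting errors cover counting only.

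Values were log2 transformed without pseudocount, missing values and values below -5 (4432 of 338928) were set to -5, and 21183 genes with at least 12 of 16 pups above -5 were compared with limma 3.58.1 in R 4.3.3 (intensity trend, Benjamini-Hochberg over all genes). No value of a member was set in this way. Intervals are 95%. Each member was also compared by a two-sided exact permutation test over 12870 splits, and correlations used 100000 resamples. On simulated data limma recovered 38.5%, 63.5% and 80% of genes changed by 0.25, 0.5 and 1 log2 units, with 8, 12 and 13 false calls among the 21183 genes, and 0 calls where no gene was changed. The count tests planned on recovered reads were not run. Lengths are from GENCODE M21. Members and gene lists were chosen with earlier results of these data known. All members are named with their values, as are the 2 to 4 genes of each other list with the smallest unadjusted p, genes behind a count of at most 5, and the 3 genes most like C1qa, C4b, Cx3cr1 and Cx3cl1 by Pearson r (mean log2 value of at least 0). Filter, imputation, pseudocount, normalization, covariates, runs and each pup left out were varied. Labels do not say whether pups of a genotype came from separate litters, so p-values measure the spread between pups.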

Additional observations from a re-analysis of the deposited data

Results flagged for a closer look

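Cx3cr1 in ChR2-flfl replicate 1, 16.04 CPM, was far from the other 7 control pups. On the log2 scale the gap to the next pup was 0.6228 of the whole range of the group, above the limit of 0.526 for 8 samples. 18 groups were looked at in this way, and chance marks about 1 in 20 of them.

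The genotype difference of C1qb differed between the sexes by -0.3566 on the log2 scale (adjusted p = 0.99, limma), being 0.20 in males and -0.16 in females.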

How the results depend on the processing

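No member had an adjusted p below 0.05 in any alternative of the genotype, sex or run comparison. The tests on recovered counts that had been planned were not run. At an unadjusted p, 1 member (Cx3cl1) passed with quantile normalization, median centring, the run as covariate or the replicate block, and 1 (Itgam) in pups 35 to 42 alone, against 0 in the reported comparison. Genes with an adjusted p numbered 1 instead of 2 with median centring, the replicate block, pups 26 to 33, pups 35 to 42, and 15 pups with sex as covariate, and 3 with the run as covariate. Pups 26 to 33 gave 672 and pups 35 to 42, the same number of pups, 1159 genes at an unadjusted p instead of 1145. The comparison of runs gave 16 instead of 26 genes with sex added. Replicate numbers did not pair the pups (correlations of same-numbered pups -0.344 to 0.389), and the block changed no other call.

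With 1 pup left out, 1 to 2 genes passed the adjusted test between genotypes and 0 to 1 members the unadjusted one, and 7 (without Avil-ChR2 replicate 1) to 123 (without ChR2-flfl replicate 4) genes differed between runs. The cause of these shifts was not tested.

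Signs of differences near 0 turned. Between genotypes, C1qc was -0.0016 in pups 35 to 42 and -0.019 in 15 pups with sex as covariate, and Itgb2 was -0.024 and -0.056 there and -0.021 with sex as covariate. C3ar1 was 0.0047 between the sexes of all 16 pups as labelled, and C1qa was 0.046 and Itgb2 0.069 between runs with sex added. With 1 pup left out, the genotype difference ranged from -0.0435 to 0.0800 for C1qc, -0.0356 to 0.1253 for C3, -0.0530 to 0.0766 for Itgb2 and -0.0383 to 0.0577 for Cx3cr1. The sex difference ranged from -0.0032 to 0.1409 for C1qc, -0.0840 to 0.0276 for C3ar1 and -0.0237 to 0.0579 for Cx3cl1. The run difference ranged from -0.0726 to 0.0404 for C1qa, -0.1209 to 0.0019 for C1qc, -0.1334 to 0.0399 for C3, -0.0180 to 0.0879 for C3ar1, -0.0143 to 0.0869 for Itgam and -0.0894 to 0.0501 for Itgb2.

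Reads were few for C3, Itgb2 and C3ar1, with at most 115 per pup, whereas Cx3cl1 had at least 9403. Where genes needed a log2 mean of 0 or more, C3 was not tested.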

Other observations

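Markers of other cells that cortex tissue can hold did not pass the adjusted test between genotypes in limma, and their part in the values of the members was not tested. Counts at an unadjusted p below 0.05, here and in the paragraphs below, are to be read beside the 5.41% of all genes. Of 7 markers of border macrophages, cells that also carry C1q and Cx3cr1, 5 were higher and 2 lower in Avil-ChR2 with 0 at an unadjusted p below 0.05, and their sum was 20.49 to 32.2 CPM in ChR2-flfl and 20.3 to 37.8 CPM in Avil-ChR2. Pf4 was 1.22 ± 0.226 and 1.0099 ± 0.475 CPM and Cbr2 0.780 ± 0.146 and 0.703 ± 0.343 CPM (SD, n = 8 each). Markers of monocytes and neutrophils, which share Itgam and Itgb2, summed to only 0.989 to 2.68 and 0.859 to 2.72 CPM. Of 8 tested, 3 were higher and 5 lower, and Camp and Ngp (lower) and Ccr2 (higher) had an unadjusted p below 0.05 at levels below 0.18 CPM on average.

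Red cell markers summed to 227 to 465 CPM in ChR2-flfl and 237 to 357 CPM in Avil-ChR2, and all 4 tested globin genes were lower with 0 at an unadjusted p below 0.05, led by Hba-a1 (86.0 ± 20.2 and 76.9 ± 14.2 CPM) and Hba-a2 (62.8 ± 15.5 and 56.7 ± 10.9 CPM). Of the lymphocyte markers 2 were tested and both were higher, Cd79b at an unadjusted p below 0.05 with 0.221 ± 0.130 and 0.351 ± 0.0824 CPM (adjusted p = 0.84, limma) and Cd79a with 0.101 ± 0.0436 and 0.131 ± 0.0681 CPM.

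Of 7 astrocyte markers 5 were higher and 2 lower with 0 at that p, led by Gfap (85.3 ± 13.8 and 93.3 ± 9.82 CPM) and Aqp4 (86.9 ± 39.3 and 103 ± 25.5 CPM). Of 8 neuron markers 6 were higher and 2 lower. Slc17a7, the vesicular glutamate transporter, was 469 ± 42.9 and 507 ± 28.8 CPM and Map2, a dendritic protein, 1875 ± 113 and 1775 ± 55.3 CPM, and these 2 had an unadjusted p below 0.05 in opposite directions. Of 7 markers of the oligodendrocyte lineage 5 were higher and 2 lower (Olig1 60.1 ± 10.1 and 63.6 ± 8.38 CPM, Mog 11.2 ± 0.816 and 10.8 ± 1.02 CPM), and of 5 endothelial markers 3 and 2 (Cldn5 36.5 ± 4.10 and 38.6 ± 3.85 CPM, Kdr 57.2 ± 1.55 and 59.0 ± 4.91 CPM), with 0 at an unadjusted p in both lists. Of 4 tested choroid plexus markers 3 were higher and 1 lower, with Ttr at an unadjusted p below 0.05 (0.157 ± 0.130 and 0.319 ± 0.374 CPM) and Clic6 at 0.569 ± 0.126 and 0.739 ± 0.258 CPM. Of 5 meningeal markers 3 were higher and 2 lower with 0 at that p, and their sum varied from 136 to 267 CPM in ChR2-flfl and 145 to 279 CPM in Avil-ChR2 (Dcn 28.4 ± 8.66 and 27.3 ± 8.57 CPM, Lum 5.13 ± 1.12 and 5.25 ± 1.17 CPM).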
